A study of Mus musculus with 78 samples.

Results

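The genes described are those that make, store and recapture dopamine and those that receive it: Th, Ddc, Slc18a2, Slc6a3, Drd2, Drd4 and Drd5. They were chosen by name, as the probe sets of the deposited table that carry 1 of these 7 symbols and no other. Each of the 7 genes has 1 probe set, and they are 7 of 19301 genes with a symbol of their own. All 7 were bright enough to be tested, as were 15102 of the 19301 genes.

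Dopamine is the catecholamine of the retina. It is released by a sparse kind of amacrine cell, an interneuron of the inner retina, and it shifts retinal circuits between dim and bright light. Th (tyrosine hydroxylase) makes L-DOPA from tyrosine with the cofactor tetrahydrobiopterin, and Ddc (aromatic L-amino acid decarboxylase) turns L-DOPA into dopamine. Slc18a2 (the vesicular monoamine transporter of neurons) loads dopamine into vesicles, and Slc6a3 (the dopamine transporter) takes it back into the cell. Drd1 and Drd5 encode receptors that raise cyclic AMP, whereas Drd2, Drd3 and Drd4 encode receptors that lower it. Photoreceptors are known to carry receptors of the latter kind.

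Fluorescent cells were sorted from the retinas of adult mice of 22 transgenic lines after a dissociation of 15 min, 200 cells to a sample, and total RNA was measured on whole-transcript arrays. The 78 arrays form 26 sets of 3 biological replicates. The labels place the 22 lines in 6 classes. Apart from PV, lines with a Cre driver were crossed to the Rosa26-LSL-RFP reporter, and the rest carry EGFP themselves. The photoreceptor class holds b2 rods (b2-Cre) and the cone lines Chrnb4 (Tg(Chrnb4-EGFP)1Gsat) and d4 (d4-Cre). Gja10 (B6Cf1-Tg(Gja10-Cre, #14)BR) is the horizontal cell line. The bipolar class holds mGluR6 (ON bipolar cells, B6Cf1-Tg(mGlur6-Cre)BR), Kcng4 (B6Cf1-Tg(Kcng4-CreERT2, #)BR), Pcp2 (rod bipolar cells, B6:FVB-Tg(Pcp2-EGFP)2Yuza) and Lhx4 (Tg(Lhx4-EGFP)199Gsat). The 9 amacrine lines are Arc (Tg(Arc-EGFP)194Gsat/Mmcd), Igfbp2 (Tg(Igfbp2-EGFP)17Gsat), Rgs5 (Tg(Rgs5-EGFP)24Gsat), Crh (Tg(Crh-Cre)282Gsat/Mmnc) and ChAT (starburst cells, 129S6-Chat_tm1(cre)Lowl/J), with Chrna3 (Tg(Chrna3-EGFP)BZ135Gsat/Mmnc), Fam81a (Tg(6430514L14Rik-EGFP)95Gsat), Fbxo32 (Tg(Fbxo32-EGFP)138Gsat/Mmcd) and Ier5 (Tg(Ier5-EGFP)267Gsat). The ganglion cell class holds PV (129SVCB6(PV-CRE#32)SA-09 crossed to ThyStopY), Drd4 (Tg(Drd4-EGFP)W18Gsat/Mmnc), Grik4 (C57BL/6-Tg(Grik4-Cre)G32-4Stuj) and Opn4 (mOpn4-Cre1D4, melanopsin cells). Csf2rb2 (Tg(Csf2rb2-EGFP)334Gsat) is the microglia line. The lines b2 and Arc were measured as 3 sets (9 arrays) each, and no sample was treated. All samples are labelled with a mixed FVB/N-Swiss Webster and C57BL/6J background. Some founders carried a recessive allele that causes photoreceptors to degenerate, per the labels' protocols, which state a backcross but not each mouse's genotype. Each line marks cells through 1 transgene or Cre driver, so a line stands for the cells its driver labels. No line was made with a Th or Slc6a3 driver. The Drd4 line is named for a Drd4-EGFP transgene, while its fluorescence label says RFP.

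Arrays of a set correlated across genes at a median r of 0.923. In 5 lines the lowest r was below 0.8, with 0.686 in Crh, 0.774 in Drd4, 0.785 in Chrnb4, 0.787 in Lhx4 and 0.788 in Chrna3. Each class carried its own markers, but some sets also carried those of other cells. The summed intensity of 6 rod markers was 287 to 2379 in Crh and 102 to 1269 in the Drd4 line. On every array of these but the lowest of the Drd4 line, the sum was mostly Gnat1, the rod transducin subunit, the only 1 of the 6 with a mean above 100, while 4 of the 6 in Crh and 3 of the 6 in the Drd4 line were at or below the median of all values. The summed intensity of 7 cone markers was 836 to 1865 in Chrna3. The sum of 5 Muller glia markers was 1438 to 5984 in the Drd4 line, 849 to 3152 in Grik4 and 596 to 3363 in Crh. It was 2699 to 5006 in Csf2rb2, where 2 of the 5 had a mean above 100. The sum of 6 microglia markers was 352 to 876 in Grik4. Values are linear intensities as deposited, and the median of all values is 9.01. Values up to an intensity of 3.99, called the floor here, were not ranked. The limit was set by the array whose lowest values followed the order of probe set identifiers furthest. It was applied to all arrays. Group values are geometric means, and differences are on the log2 scale. A call needed a size of at least 1 and an adjusted p below 0.05 (limma with Benjamini-Hochberg adjustment over all genes tested). For lines, each p rests on how far the 3 arrays of each set differ, and the lines share the other lines as their reference, so the comparisons are not independent. The number of arrays limits the precision. Class comparisons use the 22 line means, and the horizontal and microglia classes are 1 line each.

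The 7 genes fell into those that varied little and those with 1 or a few bright lines. Line means of Drd4 spanned 7.34 log2 units once values were raised to the floor, more than 99.4% of all genes tested, against a median of 1.61 over all genes. The span was 3.12 for Drd5, 2.20 for Th, 1.74 for Drd2, 1.42 for Ddc, 1.35 for Slc6a3 and 1.03 for Slc18a2. Against the other 21 lines, 19 of 154 tests of the 7 genes were called, 12 higher and 7 lower. Drd4 alone made 10 of the 19 (5 higher and 5 lower), while Drd5 had 5, Ddc 2, and Th and Drd2 1 each. Over all genes tested, 6.58% of such tests were called, 3.16% higher and 3.42% lower. With values raised to the floor 26 of the 154 were called, against 6.52% of all tests, and the added calls were all lower calls of Drd4. Within a class 10 of 140 tests were called (4.21% over all genes), or 11 with the floor (4.11%). Between classes 1 of 42 was called (4.42%), and between repeated sets of 1 line 0 of 42 (0.98% by the same limma fit, with 4 of 42 at an unadjusted p below 0.05). Of the 22 lines in order, neighbours overlapped in their arrays for every one of the 7 genes, except Fbxo32 above Gja10 for Drd4.

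**Figure D1:**
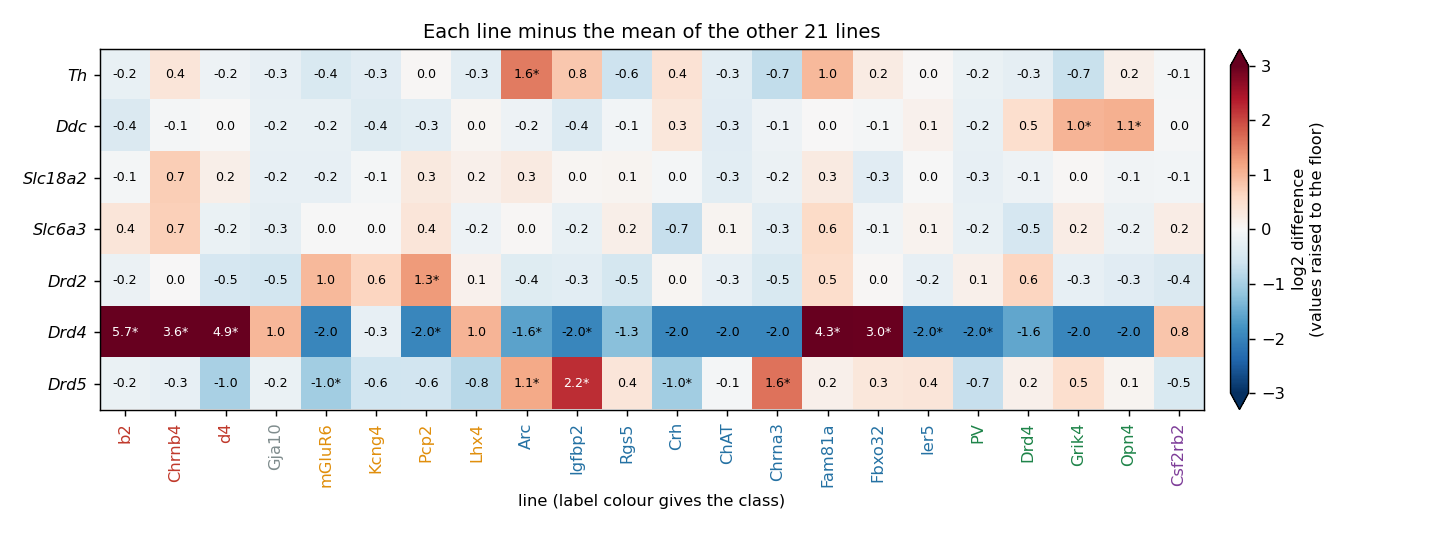
Log2 difference of each of the 22 lines (columns, coloured by class) from the mean of the other 21 lines for the 7 genes (rows), with values raised to the floor. Asterisks mark differences called on the values as deposited. The colour scale ends at 3 in either direction, so differences beyond it share its end colour. The largest is Drd4 in b2 (5.72).

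Th was highest in the Arc amacrine line, in all 3 of its sets. The 1st set read 28.4, 62.7 and 37.5 (geometric mean 40.6), the 2nd 60.5, 30.9 and 33.7 (39.8), and the 3rd 27.6, 61.9 and 32.0 (37.9). The sets overlapped throughout, with a line mean of 39.4 against 13.3 for the other 21 lines. The difference was 1.57 (SE 0.18, adjusted p = 1.17e-09), in a comparison where 1.44% of all genes were called higher. Within the amacrine class it was 1.39 (SE 0.20, adjusted p = 6.15e-07; 0.755% of genes called higher). The 1st and 3rd sets also passed against the lines of their own batch label, by 1.42 in batch 1 and 1.55 in batch 3. The 2nd set carries no batch label and passed by 1.99 when taken as batch 2. Within both the amacrine class and batch 3 it was 1.24 and not called (adjusted p = 0.21). In these pooled cells, fewer Th-bearing cells and less Th RNA per cell cannot be told apart.

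The lines ranked 2 to 4 of the 22 were also amacrine lines. Fam81a read 26.8, 21.5 and 32.3, Igfbp2 24.2, 22.1 and 24.9, and Crh 33.9, 33.6 and 5.80. Below them the Chrnb4 cones (mean 17.7) and the Opn4 ganglion line (15.7) stood among the amacrine lines. Ier5 read 9.23, 29.8 and 10.9 and Fbxo32 23.3, 9.85 and 19.3. The lowest Arc array (27.6) lay below the highest of Fam81a, Crh and Ier5, so the groups overlapped. None of these lines was called. Chrna3 was lowest at 4.92, 10.99 and 11.7, and was called lower than the other amacrine lines (difference -1.08, SE 0.31, adjusted p = 0.0115; 5.22% of genes called lower). Without replicate 1 that difference was -0.68 and was no longer called, nor was it with batch as a term (adjusted p = 0.12). Fbxo32 (16.4), Ier5 (14.4), ChAT (11.4) and Rgs5 (9.33) lay in the range of the photoreceptor, bipolar and ganglion lines, whose means ran from 8.99 in Grik4 to 17.7 in Chrnb4.

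The stretch before the start of Th is shown because its best known control element lies in it. In the RefSeq sequence (GRCm38.p6) of the 250 bases before the start at chr7:142899996-142900245, minus strand, capitals mark a cyclic AMP response element (TGACGTCA, searched on both strands) 45 bases before the start.
Th: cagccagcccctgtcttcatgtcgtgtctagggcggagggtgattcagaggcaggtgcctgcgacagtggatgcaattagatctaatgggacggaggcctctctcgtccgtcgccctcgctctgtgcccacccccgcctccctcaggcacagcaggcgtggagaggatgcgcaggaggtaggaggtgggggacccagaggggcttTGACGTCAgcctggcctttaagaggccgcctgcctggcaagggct
This motif was in 1.55% of 32851 such promoters, and in none of the promoters of the other 6 genes. A match of letters is a description of the sequence and not a measured site.

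Ddc was highest in 2 ganglion cell lines rather than in the line with the most Th. The Opn4 line read 23.5, 12.9 and 15.2 (geometric mean 16.7) and the Grik4 line 24.4, 22.9 and 7.70 (16.3), against 8.01 and 8.02 in the other 21 lines. The differences were 1.06 (SE 0.21, adjusted p = 0.000259; 3.14% of genes called higher) and 1.02 (SE 0.21, adjusted p = 0.000298; 4.09%). The Drd4 ganglion line followed with 14.4, 13.6 and 7.99, while PV, the 4th ganglion line, read 7.44, 6.73 and 7.46. PV did not overlap the other ganglion lines and was called lower than they were (difference -1.02, SE 0.24, adjusted p = 0.00248; 2.68% of genes called lower). All of these differences are close to the size limit of 1: within batch 3 those of Opn4 and Grik4 were 0.95 and 0.91 and were not called. Leaving out replicate 1 gave 0.82 for Opn4, 0.73 for Grik4 and -0.82 for PV, none of them called. Without replicate 2, Grik4 (0.77) and PV (-0.92) were not called. Array weights gave 0.91 for Opn4, 0.59 for Grik4 and -0.88 for PV. Cyclic loess gave 0.99 for Grik4 and -0.96 for PV, and none of these passed. With batch as a term the PV call was lost as well (adjusted p = 0.20).

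As a class, ganglion cells read 12.3 for Ddc against 7.53 in the other 5 classes, a difference of 0.71 (SE 0.18, adjusted p = 0.0179) that was below the size limit. Among the lines of batch 1 it was -0.0042, where PV is the class. Markers of other cells also differed among these lines. The summed intensity of 4 endothelial markers was 465 to 972 in Grik4, 122 to 563 in the Drd4 line, 26.0 to 123 in Opn4 and 23.7 to 25.9 in PV. That of 5 pigment epithelium markers was 382 to 1898, 119 to 412, 41.2 to 142 and 28.1 to 34.8. In the same order of lines, 5 Muller glia markers summed to 849 to 3152, 1438 to 5984, 121 to 1445 and 105 to 282. The 6 microglia markers summed to 352 to 876, 66.6 to 175, 51.4 to 106 and 43.8 to 57.1. Their part in the Ddc values was not tested. In the Arc line Ddc read 7.48 as a geometric mean over 9 arrays (6.28 to 9.01), all near or below the median of all values, with 13 lines above it.

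**Figure D2:**
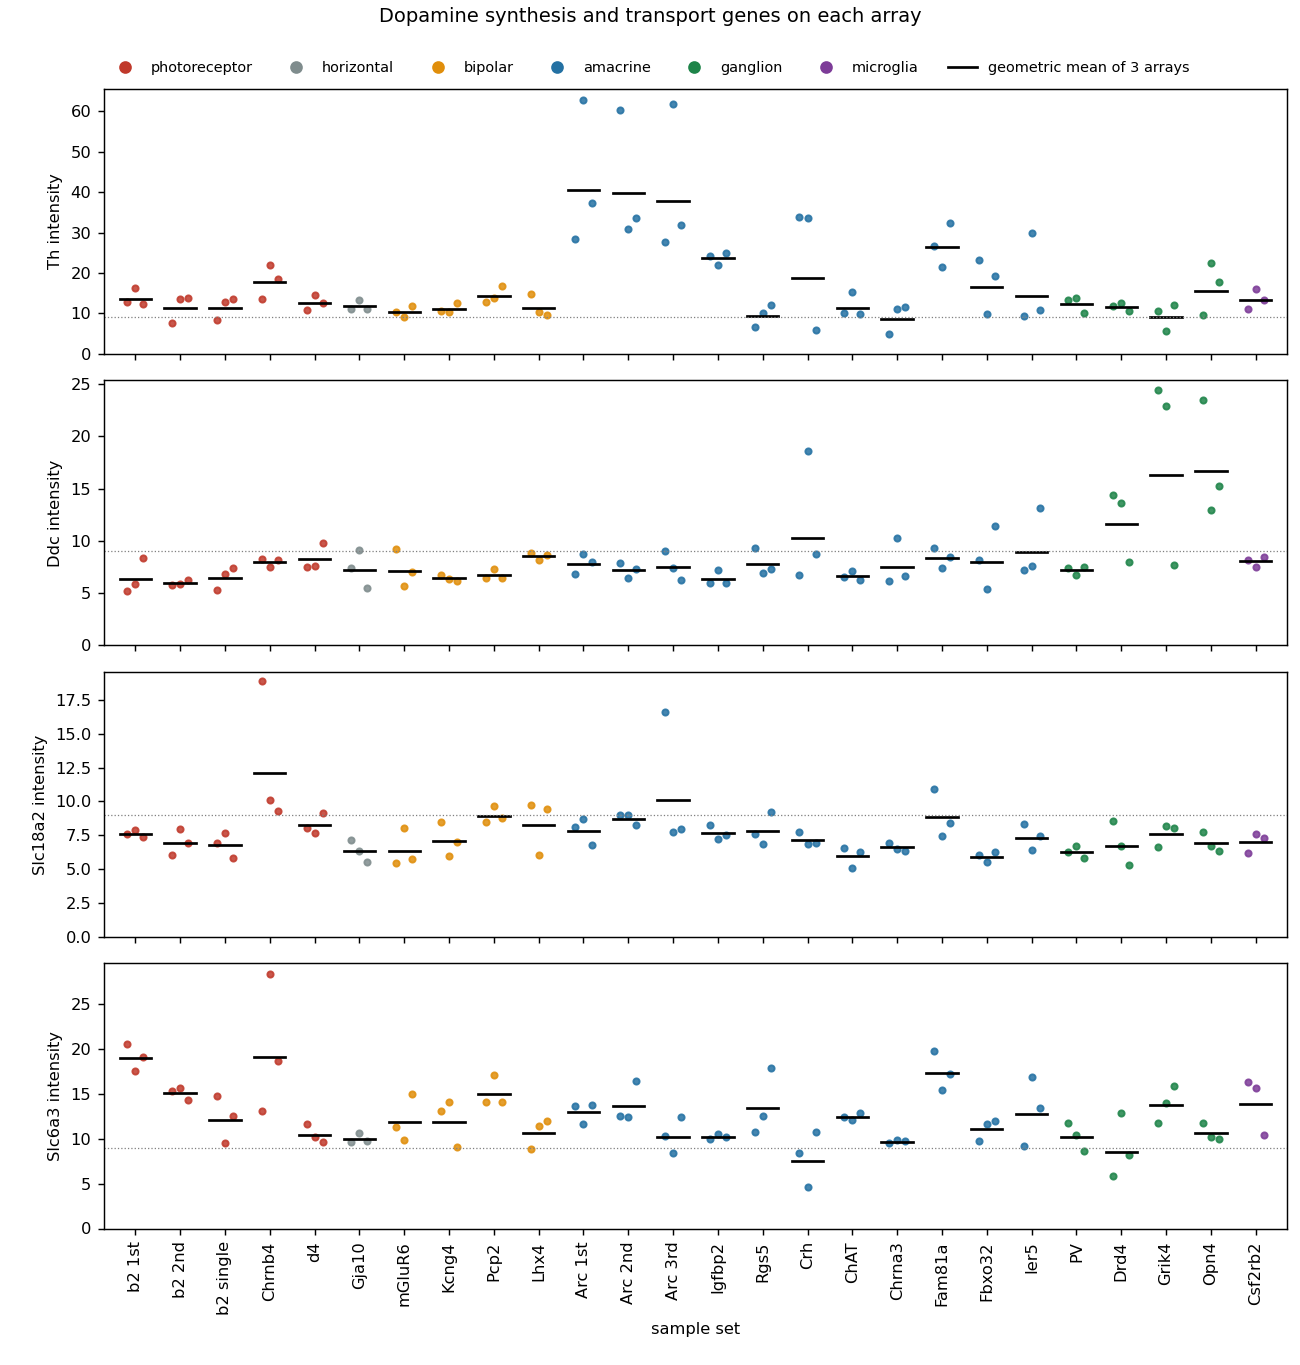
Intensity of Th, Ddc, Slc18a2 and Slc6a3 (linear axes from 0) on each array, by sample set and coloured by class; bars are geometric means of 3 arrays and the dotted line is the median of all values (9.01). The 3 Arc sets lead for Th (37.9 to 40.6), Opn4 and Grik4 lead for Ddc (16.7 and 16.3), and no line was called for either transporter.

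Neither transporter was called in any line at the limits used, which does not show that no line differs. Slc18a2 means ran from 5.93 in Fbxo32 to 12.1 in the Chrnb4 cone line (18.9, 10.1 and 9.28), and 11 of 78 arrays were above the median of all values. In limma 0 of 22 lines were called, with 4 at an unadjusted p below 0.05. In Arc the arrays ran from 6.82 to 16.6 with a median of 8.23, and 16.6 was a single array of the 3rd set. Slc6a3 means ran from 7.52 in Crh (8.45, 4.66 and 10.8) to 19.1 in Chrnb4 (13.1, 28.4 and 18.7). Again 0 of 22 lines were called, with 6 at an unadjusted p below 0.05. The b2 rods read 15.2 over 9 arrays (9.58 to 20.6). The 1st b2 set (17.6 to 20.6) lay above both others. Its difference from the unnumbered set (14.8, 9.58 and 12.5) was 0.66 and not called (adjusted p = 0.21). Arc read 12.2 for Slc6a3, rank 10 of the 22 lines. The Arc line, highest in Th, was thus not among the called lines for any of the other 3 genes of synthesis and transport.

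Of the receptors that raise cyclic AMP, Drd5 was highest in 3 amacrine lines. Igfbp2 read 31.6, 51.8 and 71.8 (geometric mean 48.9) against 10.47 in the other 21 lines, a difference of 2.23 (SE 0.33, adjusted p = 2.30e-06; 1.65% of genes called higher). Within the amacrine class it was 1.78 (SE 0.34, adjusted p = 0.000428; 0.993%), and against the lines of batch 3 it was 2.13. The call within the class was lost without replicate 3 (adjusted p = 0.15) and with batch as a term (1.08, adjusted p = 0.60). Chrna3 read 101, 20.8 and 16.9 (32.8). Its differences of 1.62 (adjusted p = 0.000208; 3.52%) and, within the class, 1.13 (adjusted p = 0.0163; 2.65%) rested on 1 array, since without replicate 1 they were 0.77 and 0.31 and not called. In Chrna3 the cone marker sum given above moved with the line, and its part was not tested.

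Arc as a whole was called higher in Drd5 by 1.13 (SE 0.20, adjusted p = 2.78e-05), but its 3 sets differed. The 3rd set read 31.2, 64.6 and 32.8 (40.4), the 1st 18.5, 21.8 and 24.2 (21.4), and the 2nd 13.5, 16.1 and 17.0 (15.5). The 3rd set lay above both others without overlap. The 2nd set was lower than the 3rd (difference -1.39, SE 0.46), which was not called (adjusted p = 0.57). Against lines of the same batch label the Arc difference was 1.83 in batch 3 and called, and 1.05 in batch 1 and not called. With the unlabelled 2nd set taken as batch 2 it was 0.40 and not called.

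At the low end for Drd5, Crh read 7.29, 5.60 and 4.37 and mGluR6 4.72, 6.16 and 6.12. They were called lower than the other lines, with differences of -1.04 (SE 0.33, adjusted p = 0.00908; 11.6% of genes called lower in Crh) and -1.04 (SE 0.33, adjusted p = 0.0356; 1.62% in mGluR6). Crh did not overlap the other amacrine lines and was lower than they were (difference -1.73, SE 0.34, adjusted p = 5.81e-05), where 12% of genes were called lower. The mGluR6 call was lost with batch as a term, at -0.16, and without any 1 replicate. The Crh call against the 21 lines was lost without replicate 2 (adjusted p = 0.072) or 3 (adjusted p = 0.14). With the amacrine class at 16.3 and the other 5 classes at 8.74, the class difference of 0.90 was not called (adjusted p = 0.088).

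Drd1, the related receptor gene outside the 7, had another order. It was highest in the Kcng4 bipolar line (22.8, 22.6 and 32.6), which was not called, and lowest in Grik4 (7.65, 3.54 and 6.59) and the Drd4 ganglion line (4.54, 7.43 and 15.0). The last 2 were called lower, with differences of -1.53 (SE 0.21, adjusted p = 9.79e-08; 3.95% of genes called lower) and -1.002 (SE 0.21, adjusted p = 0.00015; 8.76%). The latter only just passed the size limit. PV, at 17.3, 17.8 and 16.2, did not overlap the other ganglion lines and was higher than they were by 1.12 (adjusted p = 0.000794; 3.36% of genes called higher). For Drd1, PV thus lay above the other 3 ganglion lines, and for Ddc below them. PV is the only ganglion line labelled batch 1 and the others are labelled batch 3, so line and batch coincide in this contrast.

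**Figure D3:**
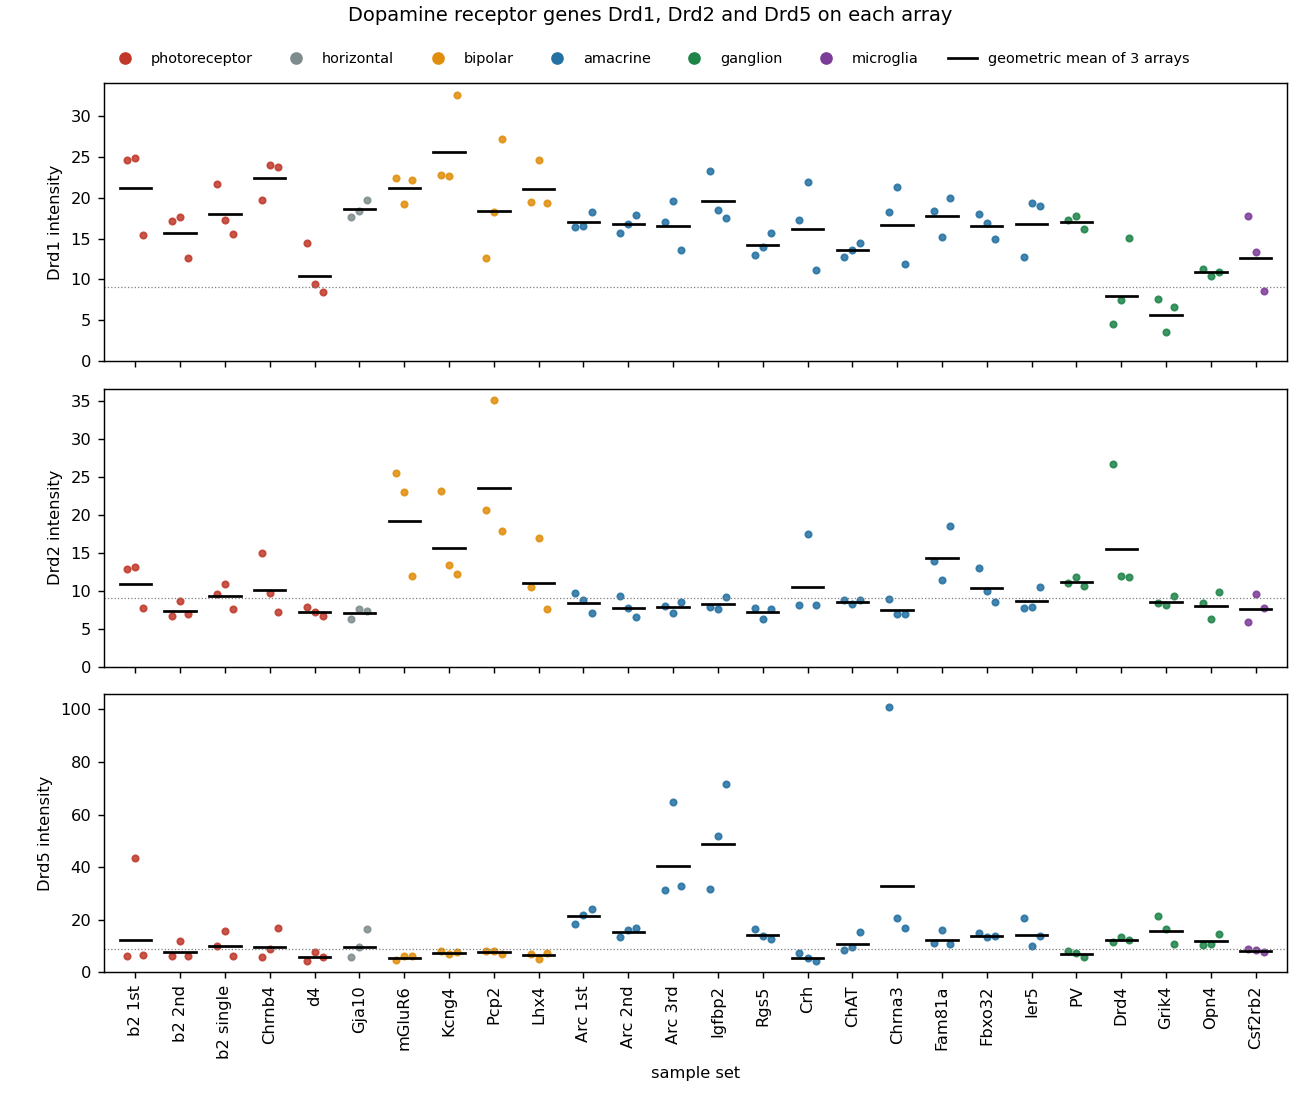
Intensity of Drd1, Drd2 and Drd5 (linear axes from 0) on each array, by sample set and coloured by class; bars are geometric means of 3 arrays and the dotted line is the median of all values (9.01). Drd2 is highest in Pcp2 (23.5), Drd5 in Igfbp2 (48.9) and Drd1 in Kcng4 (25.6), and single arrays such as Chrna3 replicate 1 for Drd5 (101) stand above their sets.

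Among the receptors that lower cyclic AMP, Drd2 was highest in bipolar lines. Pcp2, the rod bipolar line, read 20.6, 35.1 and 17.9 (geometric mean 23.5) against 9.72 in the other 21 lines, a difference of 1.27 (SE 0.21, adjusted p = 2.21e-05; 2.32% of genes called higher). It was 1.21 within batch 1, and 0.99 without replicate 2, just under the size limit. The ON bipolar line mGluR6 read 25.5, 23.0 and 11.97 (19.2), Kcng4 23.1, 13.3 and 12.2 (15.6), and Lhx4 10.4, 16.9 and 7.55 (11.01). These arrays overlapped, and no bipolar line was called against the others of the class.

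As a class, bipolar cells read 16.7 for Drd2 against 8.48 in the other 5 classes. The difference of 0.97 (SE 0.21, adjusted p = 0.00743) just missed the size limit. Without Kcng4, Lhx4 or the Drd4 ganglion line it was 1.01, 1.17 and 1.01, and was called. Outside the class the highest means were 15.5 in the Drd4 ganglion line (26.7, 11.96 and 11.8) and 14.3 in Fam81a (13.9, 11.4 and 18.5). Bipolar marker sums in the Drd4 line were 279 to 1014, against 811 to 1003 in Pcp2. The part of such cells in Drd2 there was not tested. Arc read 8.004 for Drd2 (6.49 to 9.68 over 9 arrays), below the median of all values. Drd3 varied less than the other receptors, from 5.55 in the Drd4 line to 10.7 in Chrnb4, and no line was called.

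Drd4 was highest in b2 rods and d4 cones, and all 3 photoreceptor lines were called higher. In b2 rods the 1st set read 492, 690.4 and 624, the 2nd 1053, 721 and 492, and the unnumbered set 560.2, 937 and 463. The d4 cones read 290.2, 352 and 512 and the Chrnb4 cones 94.3, 349 and 131. All 15 photoreceptor arrays were thus at 94.3 or above, while 44 of the 78 arrays, none of them of photoreceptors, were at or below the floor. Against the other 21 lines Drd4 was higher by at least 5.72 in b2 (adjusted p = 1.01e-12; 7.63% of genes called higher), at least 4.90 in d4 (adjusted p = 3.48e-05; 4.48%) and at least 3.64 in Chrnb4 (adjusted p = 0.000509; 4.42%). These bounds come from values raised to the floor, and the adjusted p values from limma on values as deposited. Each line stayed called within its own batch where it has one, b2 in batches 1 and 2 and Chrnb4 in batch 1. The Chrnb4 call was lost with batch as a term (adjusted p = 0.12).

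Over the 22 line means, Drd4 was higher in the photoreceptor class by at least 4.81 (adjusted p = 0.0386; 2.03% of genes called higher, or 2.42% with the floor). It was the only call of the 7 genes between classes, and it was lost when any 1 of the 3 photoreceptor lines was left out (adjusted p of 0.14 without b2, 0.089 without Chrnb4 and 0.093 without d4). It was lost as well without replicate 1 or 2 and without the 5 lines of low array correlation (adjusted p = 0.076). With batch removed, and without d4 and Fbxo32, the difference was 4.30, against 7.06 as deposited. That was not called either (limma, adjusted p = 0.41). Rods read 645 and the mean of both cone lines was 247. That difference of 1.39 was not called as deposited (SE 1.22, adjusted p = 0.46) and was called with values raised to the floor (SE 0.47, adjusted p = 0.0251), where 4.24% of genes were called higher. The 3 b2 sets overlapped and were not called against each other. The sum of 6 rod markers was 2305 to 3022 in d4 and 2242 to 2991 in Chrnb4, against 5612 to 8257 in b2. In both cone lines most of it was Sag, an arrestin gene that cones are known to carry as well, at set means of 2513 and 2480. The other markers in d4 had set means of 11.3 (Nrl), 1.25 (Pde6a), 0.48 (Pde6b), 0.43 (Cnga1) and 0.082 (Gnat1). In the Chrnb4 cones Gnat1 was 332, 0.22 and 227, and the array with the lowest Gnat1 had the highest Drd4 of the set.

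The stretch before the start of Drd4 is shown since this gene had the widest range. In the RefSeq sequence (GRCm38.p6) of the 250 bases before the start at chr7:141291768-141292017, plus strand, capitals mark 3 GC boxes (GGGCGG) that begin 82, 77 and 56 bases before the start and of which the first and second overlap.
Drd4: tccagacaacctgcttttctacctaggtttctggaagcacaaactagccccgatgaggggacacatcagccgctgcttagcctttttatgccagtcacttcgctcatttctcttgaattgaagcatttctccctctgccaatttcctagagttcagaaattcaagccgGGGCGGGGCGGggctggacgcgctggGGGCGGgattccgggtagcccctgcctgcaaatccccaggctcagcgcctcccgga
GC boxes, searched on both strands, were in 32.7% of 32851 promoters. The core letters of the photoreceptor factors of the OTX and CRX kind (TAATCC, both strands) were in 6.25% of promoters and in none of those of the 7 genes, which says only that these letters are not in this window.

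Outside photoreceptors, Drd4 was high in 2 amacrine lines. Fam81a read 337, 151 and 291 (geometric mean 245) and Fbxo32 293, 51.9 and 75.6 (105), while the other 7 amacrine lines were at means of 1.26 or less, with single arrays of 25.9 in Arc and 16.1 in Rgs5. They were higher than the other 21 lines by at least 4.26 (adjusted p = 0.00104; 0.841% of genes called higher) and at least 2.97 (adjusted p = 0.00961; 1.15%). Within the amacrine class they were higher by at least 5.23 (adjusted p = 3.51e-05; 0.55%) and at least 3.85 (adjusted p = 0.000879; 0.616%). Fam81a overlapped the cone lines and lay below every b2 array. Against the 21 lines, the Fam81a call was lost without replicate 3 (adjusted p = 0.073) and with batch as a term (adjusted p = 0.27). The Fbxo32 call was lost without replicate 1 (adjusted p = 0.13) or 3 (adjusted p = 0.14), and within the class without replicate 3 (adjusted p = 0.055).

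Rod markers were looked at beside these values, since b2 rods had the highest Drd4. In Fam81a the summed intensity of 6 rod markers was 13.9 to 44.7, against 5612 to 8257 in b2, and Gnat1 was 0.056 or less on every array. The cone marker sum in Fam81a was 9.97 to 15.0, against 14144 to 16646 in Chrnb4. In Fbxo32 the rod sum was 67.5 to 147, its highest array was also the one with Drd4 at 293, and Gnat1 was 4.87 to 69.3. The part of rods in the Fbxo32 value was not tested. In Crh, Drd4 was 0.26, 2.51 and 1.84, all below the floor. Gnat1 was 197, 2362 and 1277 on these arrays, but 4 of the 6 rod markers were at or below the median of all values, so the sum there rests on Gnat1.

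The Drd4 ganglion line, named for its Drd4-EGFP transgene, did not read high for Drd4. Its arrays were 8.81, 1.27 and 0.99, of which 2 were below the floor. The first also had the highest rod sum of the line, 1269, of which 1218 was Gnat1. The line was not called against the other 21 (adjusted p = 0.91 as deposited), and with values raised to the floor it was lower (difference -1.57, SE 0.52, adjusted p = 0.0166). The other ganglion lines were all below the floor, from 0.0448 to 1.93.

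**Figure D4:**
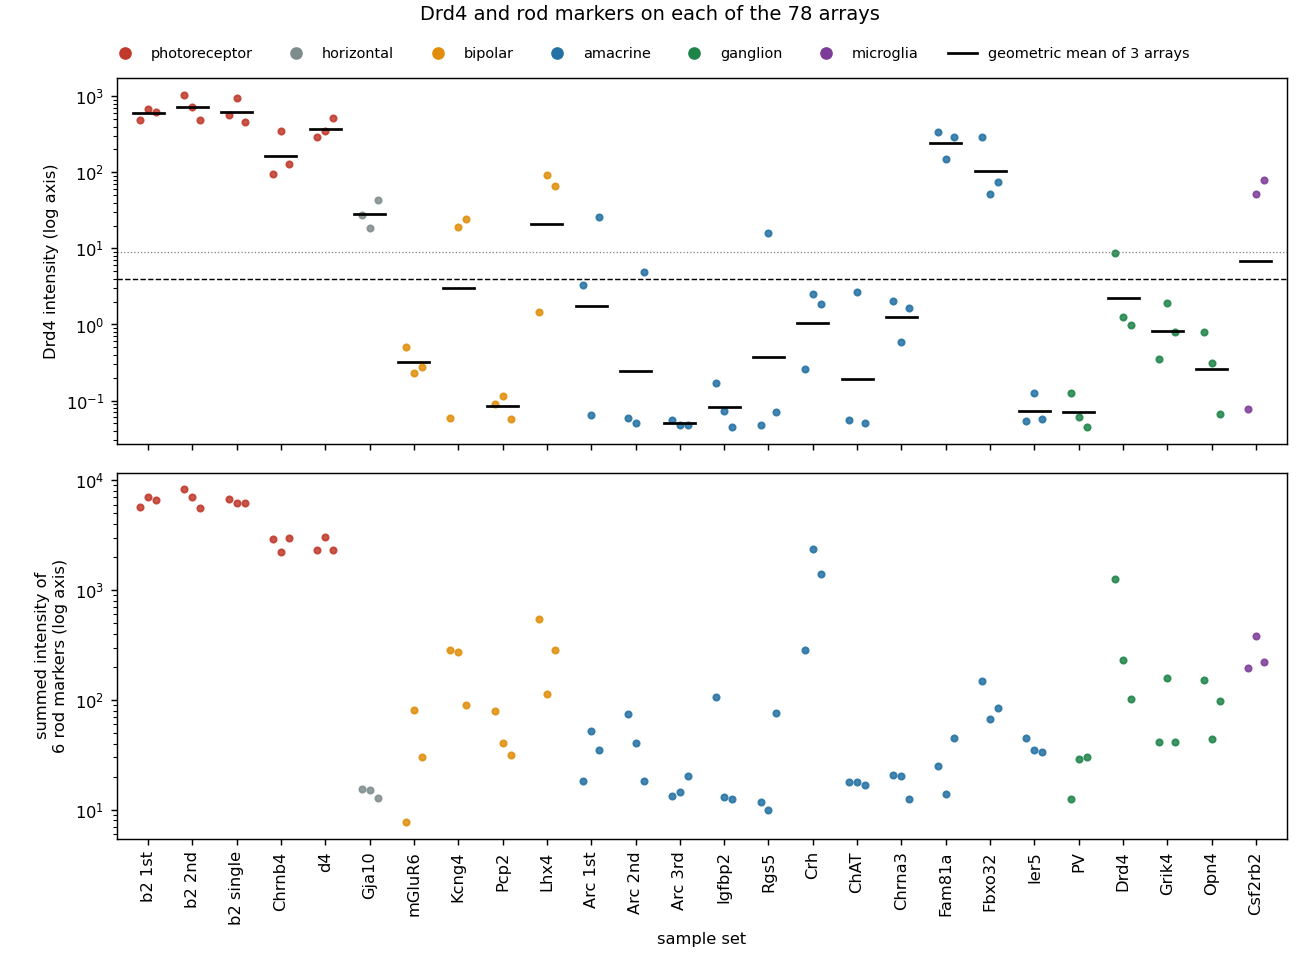
Drd4 intensity (upper panel) and the summed intensity of 6 rod markers (lower panel) on each of the 78 arrays, both on log axes, by sample set and coloured by class; bars are geometric means of 3 arrays, the dashed line is the floor (3.99) and the dotted line the median of all values (9.01). All 15 photoreceptor arrays and the Fam81a and Fbxo32 arrays are at 51.9 or above for Drd4, while the rod sum of Fam81a is 13.9 to 44.7.

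Between these extremes lay 4 lines. The horizontal line Gja10 read 27.4, 18.8 and 43.6. Lhx4 bipolar cells read 1.47, 92.7 and 65.4, Csf2rb2 microglia 0.0764, 52.3 and 78.8, and Kcng4 bipolar cells 0.0581, 19.2 and 24.6. In each of the latter 3, replicate 1 was below the floor and the other 2 arrays above the median of all values. In the same order the rod sums were 547, 112 and 288 in Lhx4, 194, 379 and 222 in Csf2rb2, and 282, 271 and 88.9 in Kcng4. The array with the least Drd4 thus had the lowest rod sum in Csf2rb2 and the highest in Lhx4 and Kcng4, and the part of rods in these values was not tested. Against the other bipolar lines Lhx4 was called higher (5.59 as deposited, 2.31 with the floor, adjusted p = 0.0237 as deposited; 1.26% of genes called higher). That call was lost without replicate 2 or 3 (adjusted p = 0.16 each) and within batch 3 (2.78, adjusted p = 0.69). Pcp2 was called lower in its class (adjusted p = 0.0436; 1.85%), a call lost with the floor (adjusted p = 0.13). Against the other 21 lines the calls of lower Drd4 were Pcp2, Arc, Igfbp2, Ier5 and PV, with 2.47%, 0.761%, 0.477%, 0.98% and 0.715% of genes called lower in them. The calls of Pcp2, Igfbp2, Ier5 and PV were each lost without replicate 2 or 3, and that of Arc without replicate 2 (adjusted p = 0.45). The Arc call was also lost within batch 1 (-0.74, adjusted p = 0.85) and batch 3 (adjusted p = 0.12). That of Igfbp2 was lost with batch as a term (adjusted p = 0.88) and within batch 3 (adjusted p = 0.25). With values raised to the floor the lower calls were 12, and sizes among lines at the floor were not ranked.

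The genes most like each of the 7 in pattern are given by the correlation of line means over 22 lines. This is a description, since all genes share the same arrays, normalisation and marker mixtures. For Drd4 the closest genes were Ubtd1 (r = 0.80), Pdc (0.78), 1700029J07Rik (0.77), Pde6g (0.77) and Klhl36 (0.76), of which Pdc and Pde6g are known genes of phototransduction. For Drd2 they were Cfi (0.82), Trpm1 (0.81), Mfap2 (0.80), Trnp1 (0.78) and Gabrr2 (0.78), and Trpm1 is the cation channel of ON bipolar cells. For Ddc they were Ppef1 (0.88), Gpx3 (0.88), Eomes (0.87), Rarb (0.87) and Emcn (0.85). Eomes is a factor of melanopsin cells and Emcn an endothelial gene. For Th they were Gdf2 (0.74), Bmp5 (0.72), the serotonin receptor Htr1a (0.72), the peptide precursor Tac2 (0.71) and Ucma (0.69). For Drd5 they were Olfm3 (0.87), Cbln2 (0.84), Gjc1 (0.77), Cavin3 (0.77) and Rhou (0.77). Slc6a3 was closest to Gip (0.88), Mllt6 (0.87), Notch4 (0.86), 2610028H24Rik (0.85) and Pbxip1 (0.84). Slc18a2 was closest to Adam34l (0.77), Thrb (0.73), Zxdc (0.73), Atrn (0.73) and Zbtb4 (0.72), all highest in Chrnb4. Among the 7 genes themselves the highest r was 0.58, between Slc18a2 and Slc6a3, then 0.42 between Slc6a3 and Drd4 and 0.42 between Th and Slc18a2. Th and Ddc had an r of -0.09.

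The genes that make and recycle tetrahydrobiopterin were looked at beside Th. Of 8 listed, 6 were tested: Gch1, the first enzyme of the path, its regulator Gchfr, Pts, Qdpr, Pcbd1 and Pcbd2. In Arc 1 of the 6 was called, Pcbd1, a cofactor recycling enzyme, at 315 against 56.0 (2.49, SE 0.30). Over all genes tested, 1.44% were called higher in Arc and 0.761% lower. The median difference of the 6 was 0.54, against -0.01 for all genes tested. It was 0.52 in Igfbp2 and 0.91 in Gja10. Pcbd1 was also called higher in Igfbp2 (3.13) and Opn4 (3.46), where Th was not called. In Gja10 2 of the 6 genes were called higher. The count was 1 each in Fam81a, Fbxo32, Ier5, Crh, PV, Drd4, Grik4, b2 and Csf2rb2. Of the lines just named, b2 had 3 genes called lower, Csf2rb2 2 and Ier5 1. Gch1 in Arc was 6.97 against 4.99 (0.48, SE 0.15, adjusted p = 0.038), below the size limit, and Qdpr was 376 against 243 (0.63, adjusted p = 0.027). As a class, amacrine lines were higher in Qdpr by 1.37 (SE 0.34) and b2 rods were lower than cones in Qdpr (-2.39) and Pcbd1 (-2.04), while Gchfr was higher in rods by at least 2.05. Microglia were higher in Gch1 (1.48) and lower in Qdpr (-2.77).

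Of 16 factors known from dopamine neurons, 13 were tested and 3 were called in Arc. Nr4a2, the nuclear receptor needed for midbrain dopamine neurons, was 18.9 against 6.43 (1.55, SE 0.16), and Lhx9, a LIM homeobox factor, 19.7 against 7.42 (1.41, SE 0.14). Sncg, a synuclein gene, was lower at 16.3 against 57.4 (-1.81). Over all 57 list genes tested 3 were higher and 1 lower in Arc, where 1.44% and 0.761% of all genes were. The list's median difference in Arc was -0.03, against -0.01 for all genes. Pitx3, Lmx1b, En1, En2 and Ret were not called there. Within the amacrine class Nr4a2 (1.53) and Lhx9 (1.01) were again called higher in Arc, and Neurod6 lower (-1.37). In Fam81a and Igfbp2, the next lines for Th, Gfra1, a receptor of glial cell line derived factors, was called higher in each (1.02 and 1.10). Lhx9 was called higher in Igfbp2 (1.02). En2 was higher in photoreceptors (2.26) and lower in rods than in cones (-3.14), and Sncg was higher in ganglion cells by 5.02, at 1447 against 44.5.

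For breakdown of catecholamines, 5 of 8 listed genes were tested. In ganglion cells 2 of the 5 were called, the oxidase Maoa at 48.8 against 19.0 (1.36, SE 0.31) and the aldehyde dehydrogenase Aldh1a1 at 30.6 against 7.55 (2.02, SE 0.48). Over all genes tested, 3.26% were called higher there and 0.973% lower. The list's median difference was 0.47, against 0.01 for all genes. Of this class, the Drd4 and Grik4 lines also carried Muller glia, endothelial and pigment epithelium markers, as given above. The part of such cells in Maoa and Aldh1a1 was not tested. Maoa was lower in b2 rods (-1.16). Microglia were higher in the sulfotransferase Sult1a1 by 3.82. Of 9 genes for other monoamines, 4 were tested: Slc29a4, a low affinity monoamine transporter, was higher in horizontal cells (14.8 against 6.77, difference 1.13), and the histidine decarboxylase gene Hdc was higher in rods than in cones (15.8 against 5.22, difference 1.59).

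Of 26 genes of receptor signalling, 23 were tested. Their median difference was -0.32 in photoreceptors and 0.38 in ganglion cells, against -0.05 and 0.01 for all genes. In photoreceptors 1 was called higher and 3 lower, where 2.03% and 4.32% of all genes were. Gnb5, encoding the G protein beta subunit that partners with regulators of G protein signalling, was higher at 476 against 47.5, by at least 2.62, and the alpha subunit genes Gnao1 (-1.84) and Gnai2 (-1.03) and the arrestin gene Arrb2 (-1.03) were lower. In bipolar cells Gnao1, encoding the alpha subunit of the ON bipolar glutamate receptor cascade, was called higher at 548 against 105 (2.39, SE 0.26), without overlap. In ganglion cells Gnai1 (1.60) and Rgs4 (1.22) were called higher and Ppp1r1b, the phosphatase inhibitor of dopamine target cells, lower (9.01 against 18.3, difference -1.02, adjusted p = 0.0463). Of 13 other monoamine receptors, 6 were tested: the melatonin receptor gene Mtnr1a was higher in horizontal cells (54.3 against 6.36, difference 3.09) and Adra2c higher in ganglion cells (1.06). Over all 57 list genes tested, 6 were called higher and 1 lower in ganglion cells, against 3.26% and 0.973% of all genes. The part of the other cells marked in the Drd4 and Grik4 lines was not tested here either. In photoreceptors 2 were higher and 5 lower, against 2.03% and 4.32%. In amacrine cells 1 was higher and 1 lower, against 1.55% and 1.23%.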

How the data were processed

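The 78 arrays were deposited by the authors as 1 table of linear intensity values, made with RMA in oligo under R 2.11.1 on build mm9, per the submitters' processing notes; their settings are not given in the sources used here. The sorted values are the same on every array, so the columns had been quantile normalised. Of 22347 probe sets, 19446 carry 1 symbol, 735 carry several and 2166 are not listed in the probe annotation used here. The deposited intensities were taken to the log2 scale with no pseudocount and no further normalisation. Values at or below 3.99 (10.5% of all) were treated as a floor. On 70 of 78 arrays the 10 lowest values or more stand in the order of the probe set identifiers. The floor is the highest value at which such a run ends on any array, so it can be too high for other arrays. Bounds were set with values raised to that floor. A gene was tested where at least 1 set had a mean above 9.01. A fold is given as "at least" where the fits with and without the floor differ by more than 1.5-fold and no array of the brighter group reaches down to it.

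Limma 3.58.1 (R 4.3.3) fitted 1 mean per set with a trended prior over all genes, in 54 comparisons: 22 of a line against the other 21, 20 within a class, 6 of classes over line means and 6 between repeated sets. Adjusted p values in the text are from limma with Benjamini-Hochberg adjustment over all 15102 genes tested. The genes named are the 7 members, the 5 genes most like each by Pearson r of line means raised to the floor, and of the pathway lists those called in the comparison described (at most 6 per list, by size), with Drd1 and Drd3 as the missing receptors. Gch1, Qdpr, Pitx3, Lmx1b, En1, En2 and Ret in Arc stand outside this rule and were named after their values were seen. The members and lists were chosen with earlier results of these data known. Promoters are from RefSeq. Tables and plots were made with python 3.11.15, pandas 2.3.3, numpy 2.4.6 and matplotlib 3.10.9. The fits were tested on simulated data. Alternatives were the floor, no filter, cyclic loess, each replicate or line left out, array weights, batch as a term or within batches, and a replicate block. Replicate numbers were not taken as pairs, since arrays of equal number had a mean residual correlation of 0.000207. The 2nd Arc set has no batch label of its own and was taken as batch 2, and d4 and Fbxo32 have none.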

Additional observations from a re-analysis of the deposited data

Results flagged for a closer look

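In 35 groups of arrays or lines examined for a single value far from the rest, 4 had one. The threshold used is one that chance passes in about 1 in 20 groups. For Slc18a2, replicate 1 of the 3rd Arc set was at 16.6, while the other arrays of the line ran from 6.82 to 9.03. For Drd4, replicate 3 of the 1st Arc set was at 25.9, against 0.0479 to 4.94 on the others, of which only 1 was above the floor. For Drd4 among the bipolar lines, Lhx4 was at 20.7 as a geometric mean, and the other 3 lines ran from 0.0835 to 3.02. These 3 means are below the floor and were made equal by it, so a single line above the floor is always flagged. The chance rate given above does not hold there. Kcng4, at 3.02, had arrays of 19.2 and 24.6 beside 1 below the floor. For Drd5, replicate 2 of the 1st b2 set was at 43.6, while the other arrays of the line ran from 6.16 to 15.6.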

How the results depend on the processing

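Of the calls against the other 21 lines, 19 as reported, 26 were made with values raised to the floor, 17 with cyclic loess, 18 with array weights, 18 of 140 with batch as a term, and 10 to 17 with 1 replicate number left out. Within batches there were 9 of 56, 7 of 28 and 5 of 77. Within classes, 10 became 5 of 126 with batch as a term, 7 to 8 without a replicate, and 4 of 42, 2 of 14 and 4 of 63 in batches 1, 2 and 3. Leaving out the 5 lines with array correlations below 0.8, an alternative chosen after seeing the data, gave 18 of 119 and 6 of 105. Between classes the 7 genes had 1 call as reported, 0 with batch removed, 0 among the lines of batch 1 or 2, 0 to 2 without a replicate and 0 to 2 without a line, and these counts need not be of Drd4. Between repeated sets, array weights gave 1 call, Drd5 in Arc. Signs turned for Drd4 within the amacrine class in Crh (-0.73 to 0.74 without a replicate, 0.25 with array weights, 3.40 with batch as a term, 3.19 in batch 3) and in the Drd4 line (-1.69 to 0.53 without a replicate, with 0.42 without replicate 3, 2.40 with batch as a term, 0.95 in batch 3). With batch as a term they also turned for Drd4 in Crh (1.27) and Grik4 (0.88). Sncg in photoreceptors was 1.14 among lines of batch 2, and Ddc in ganglion cells -0.0042 among those of batch 1. The cause was not tested. A replicate block gave 19 and 10 calls and changed none, and equal numbers did not deviate together. Batch is estimated only from Arc and b2, and Drd4 values below 3.99 were not ranked.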
